A study of Mus musculus with 7 samples.

Results

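The late neutrophil granule genes described here are 10 named genes, *Ltf*, *Lcn2*, *Camp*, *Ngp*, *Mmp8*, *Mmp9*, *Chil3*, *Lyz2*, *Wfdc21* and *Mcemp1*, chosen by name as genes of the secondary and tertiary granule stage. All 10 are listed among the 25033 gene symbols of the deposited count files, and all 10 were among the 11265 genes that passed the filter on low counts. RNA was sequenced from lineage depleted (lin-) bone marrow cells of mice aged 6 to 8 weeks, 3 *HRP-2* wild type (WT, Hrp2+/+) and 4 *HRP-2* knockout (KO, Hrp2-/-). The knockout mice carry the systemic tm1b allele of *Hdgfrp2* on a C57BL/6N background, so every cell of the animal lacks the gene from birth. The lin- cells are what an antibody kit leaves after a step that removes mature cells. RNA of mature neutrophil genes such as *Ly6g* was still found in every library. The part of left-over mature cells in the levels of the 10 genes was not tested. The libraries counted 1 fragment per transcript near the poly(A) tail, so a level in CPM (the reads of a gene scaled to library size, after edgeR's TMM factors) does not depend on transcript length.

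Neutrophils load their granules in a fixed order as they mature in the marrow. Promyelocytes make primary granules with myeloperoxidase and elastase, myelocytes and metamyelocytes then make secondary granules with lactoferrin and cathelicidin, and band cells fill tertiary granules with gelatinase. The transcription factor C/EBPε is known to be needed for the secondary granule genes.

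The libraries held between 3525665 and 5605158 reads on genes, and 3 reads, taken as the floor, correspond to 0.535 to 0.851 CPM before TMM scaling, for counting error only. The targeted gene *Hdgfl2* had 156 to 228 reads in each WT mouse and 2 to 13 in each KO mouse, low in each KO library and high in each WT library. KO replicate 3 stood apart from the other 6 mice in sex-linked RNA: *Xist*, the RNA of the inactive X chromosome, had 3 reads there and 848 to 1457 reads elsewhere, and the Y-linked *Ddx3y* had 559 reads there and 0 to 4 elsewhere. The labels give no sex. This mouse was also the most deeply sequenced, so fold changes of the members and the medians of the main lists are given with and without it. The part of sex in them was not tested. The ribosomal RNA precursor *Rn45s* ranged from 45719 to 225450 CPM, lowest in KO replicate 1 and highest in WT replicate 2.

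The promoter sequences are shown because they are what the members share or lack on the DNA, before any measured level. RefSeq windows on GRCm38.p6 were found for 8 of the 10 genes; *Mmp9* and *Wfdc21* had none. The bases printed lie before both the RefSeq and the GENCODE start of the gene, 5′ to 3′ on the gene's own strand, and capitals mark a match, on either strand, to 1 of 3 motifs. The letters searched for C/EBP factors were TTNNGNAA, the core of their site. Those for factors of the ETS family, to which PU.1 belongs, were GAGGAA, and matches to them may also read as the reverse complement in the lines that follow. The letters for the GATA family, whose members direct other blood lineages, were AGATAA. *Mcemp1* is shown as a window with no match.
Ltf, chr9:111019042-111019270, plus strand: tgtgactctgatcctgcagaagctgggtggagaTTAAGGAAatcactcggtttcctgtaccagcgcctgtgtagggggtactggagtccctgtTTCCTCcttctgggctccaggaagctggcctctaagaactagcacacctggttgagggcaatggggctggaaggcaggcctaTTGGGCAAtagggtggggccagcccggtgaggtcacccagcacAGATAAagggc
Ngp, chr9:110419558-110419746, plus strand: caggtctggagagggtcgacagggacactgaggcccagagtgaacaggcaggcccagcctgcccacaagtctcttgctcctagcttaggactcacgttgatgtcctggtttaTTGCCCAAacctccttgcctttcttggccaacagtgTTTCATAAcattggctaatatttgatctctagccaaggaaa
Mmp8, chr9:7558179-7558428, plus strand: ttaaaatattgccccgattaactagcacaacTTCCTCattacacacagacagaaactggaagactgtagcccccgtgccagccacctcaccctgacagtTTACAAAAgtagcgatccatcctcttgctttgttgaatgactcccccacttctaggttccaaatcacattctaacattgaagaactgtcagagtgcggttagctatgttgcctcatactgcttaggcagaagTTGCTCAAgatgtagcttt
Chil3, chr3:106167565-106167814, minus strand: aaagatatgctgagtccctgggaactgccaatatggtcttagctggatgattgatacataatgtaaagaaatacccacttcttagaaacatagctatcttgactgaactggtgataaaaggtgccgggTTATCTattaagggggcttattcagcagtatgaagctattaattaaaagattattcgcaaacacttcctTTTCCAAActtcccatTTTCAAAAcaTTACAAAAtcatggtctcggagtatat
Mcemp1, chr8:3665512-3665753, plus strand: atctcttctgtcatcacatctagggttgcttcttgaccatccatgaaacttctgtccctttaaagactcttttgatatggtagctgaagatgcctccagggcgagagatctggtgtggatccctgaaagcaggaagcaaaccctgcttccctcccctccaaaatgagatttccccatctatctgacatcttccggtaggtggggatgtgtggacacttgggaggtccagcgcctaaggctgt

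Within the 250 bases before the RefSeq start, the C/EBP letters were present in 6 of the 8 members with a window, against 36.8% of 32817 windows of that length. The exceptions were *Camp* and *Mcemp1*. *Ngp* and *Chil3* held 3 matches each (1 of *Ngp* lies outside the printed bases), *Ltf* and *Mmp8* held 2, and *Lcn2* and *Lyz2* held 1. The matches of *Lcn2* and *Lyz2* do not lie wholly before the GENCODE start. Before both starts, only *Ltf*, *Ngp*, *Mmp8* and *Chil3* held the C/EBP letters. The ETS letters were found in *Ltf*, *Lcn2* (again not before the GENCODE start) and *Mmp8*, that is in 3 of 8 members and 23.3% of all windows. The GATA letters were found in *Ltf* and *Chil3*, in 2 of 8 members and 9.99% of all windows. The motifs were chosen with the values known, and a match is a stretch of letters, not a measured binding site.

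With edgeR's quasi-likelihood fit, 2 of the 11265 genes fell below the limit of 0.25 on the adjusted p-value, which is 0.0178%, and none of the 10 members was among them. All 10 members nevertheless had a positive log2 fold change (KO over WT), where 49.8% of all genes tested did. The members were chosen with earlier results of these data known. Many were high in the same mice, so they do not count as 10 separate observations. The median over the members was 0.70, from 0.37 for *Ltf* to 0.89 for *Mmp9*, while the median over all genes was −0.0014. Of the 10, *Wfdc21*, *Mcemp1* and *Chil3*, 3 in all, had an unadjusted p-value below 0.05, each higher in KO cells, where 1.56% of all genes were called in that direction. The count was 7 without edgeR's robust estimation, beside 1.66% of all genes, and 6 without KO replicate 2, beside 1.7%. KO and WT mice were fully separate in CPM for 1 of the 10, *Wfdc21*, though not with library size as the only scaling, beside 2.37% of all genes with every KO mouse above every WT mouse. With fewer mice more genes separated: 4 of the 10 members without WT replicate 3 beside 5.46% of all genes, 3 without KO replicate 2 beside 4.41%, and 3 without KO replicate 4 beside 4.09%. In bulk RNA, more cells of a kind and more RNA per cell cannot be told apart.

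**Figure D1:**
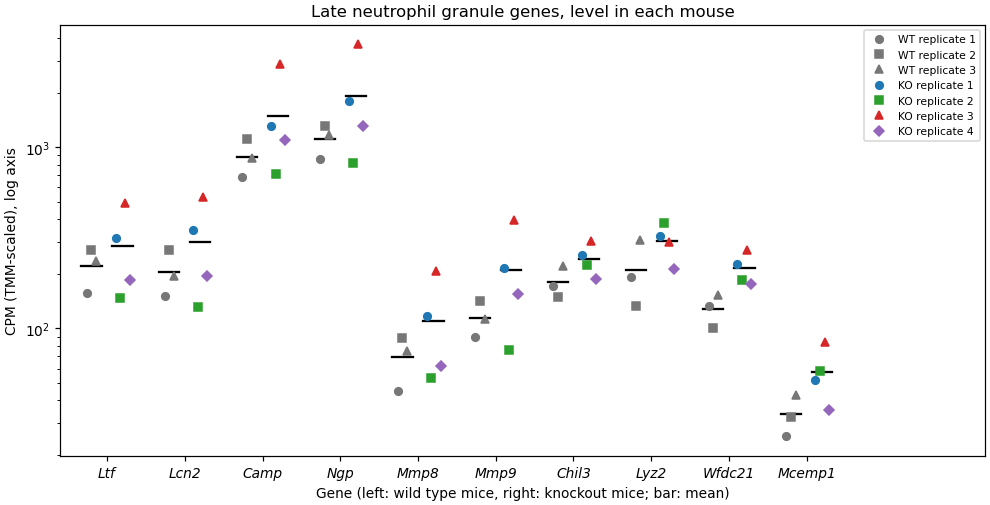
Level of each of the 10 genes in each mouse, in CPM on a log axis, with WT mice at the left and KO mice at the right of each gene and a bar at the group mean. KO replicate 3 (red triangles) was the highest mouse for 9 of the 10 genes, and the genotypes were separate for *Wfdc21* with TMM scaling, not with library size alone.

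*Ltf* encodes lactoferrin, the iron-binding protein of secondary granules, and lies on chromosome 9. Its levels were 156, 271 and 234 CPM in WT replicates 1 to 3 and 314, 147, 494 and 186 CPM in KO replicates 1 to 4. The lowest and the highest mouse were both knockouts, and the WT mice lay among them. The mean was 220.7 ± 58.7 CPM (SD, n = 3) for WT and 285.2 ± 156.7 CPM (SD, n = 4) for KO, a log2 fold change of 0.37 (standard error 0.48, unadjusted p = 0.471, adjusted p = 0.999 by edgeR). *Lcn2*, on chromosome 2, encodes lipocalin 2, which withholds iron from bacteria by binding their siderophores. It stood at 151, 272 and 195 CPM in the WT mice and at 349, 131, 532 and 193 CPM in the KO mice. The mice fell in the same order as for *Ltf*, with KO replicate 2 lowest and KO replicate 3 highest, and the log2 fold change was 0.55 (standard error 0.55, unadjusted p = 0.354, adjusted p = 0.999 by edgeR).

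*Camp* encodes the precursor of cathelicidin, an antimicrobial peptide, and *Ngp* encodes neutrophilic granule protein, a relative of the cathelicidins. *Camp* levels were 682, 1108 and 866 CPM in WT mice and 1302, 712, 2860 and 1089 CPM in KO mice. *Ngp* levels were 860, 1302 and 1168 CPM in WT mice and 1795, 815, 3694 and 1310 CPM in KO mice. In both genes KO replicate 3 stood far above the other 6 mice and KO replicate 2 lay below the WT mean. The log2 fold change was 0.75 for *Camp* (standard error 0.52, unadjusted p = 0.205) and 0.78 for *Ngp* (standard error 0.56, unadjusted p = 0.216), each with an adjusted p of 0.999 by edgeR.

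*Mmp8*, the neutrophil collagenase of secondary granules, was the lowest of the proteases at 45.0, 88.5 and 75.2 CPM in WT mice. The KO mice had 116.8, 53.0, 208.2 and 61.8 CPM, so 2 of them lay within the WT range and 2 above it. *Mmp9*, the gelatinase that names the tertiary granules, stood at 89.1, 141.1 and 112.1 CPM in WT mice. In the KO mice it stood at 215.3, 76.1, 397.1 and 154.0 CPM, with 3 mice above every WT mouse and replicate 2 below every one. The log2 fold change was 0.67 for *Mmp8* (standard error 0.58, unadjusted p = 0.294) and 0.89 for *Mmp9* (standard error 0.59, unadjusted p = 0.187), with adjusted p-values of 0.999 by edgeR.

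The other 4 genes followed another order over the mice. *Wfdc21* encodes a small secreted protein with a whey acidic protein domain. It stood at 132, 101 and 153 CPM in WT mice and 227, 184, 271 and 176 CPM in KO mice, so that every KO mouse lay above every WT mouse after TMM scaling. The mean was 128.5 ± 26.4 CPM (SD, n = 3) for WT and 214.6 ± 43.8 CPM (SD, n = 4) for KO. Its log2 fold change of 0.74 had the smallest standard error but 1 among the members, 0.17, and its unadjusted p of 0.000483 ranked 10 among all genes tested, with an adjusted p of 0.544 by edgeR. It passed the limit without a filter on low counts (adjusted p = 0.0022 by edgeR) and with DESeq2 (adjusted p = 0.0931). *Mcemp1* encodes a membrane protein first described in mast cells that is also made by myeloid cells. It was found at 25.4, 32.5 and 42.8 CPM in WT mice and at 51.7, 58.4, 84.1 and 35.6 CPM in KO mice, with 3 of the 4 KO mice above every WT mouse. Its log2 fold change was 0.78 (standard error 0.26, unadjusted p = 0.0086, adjusted p = 0.999 by edgeR).

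*Chil3* encodes the chitinase-like lectin Ym1, made by neutrophil precursors, monocytes and macrophages. Its levels were 172, 149 and 222 CPM in WT mice and 255, 225, 305 and 186 CPM in KO mice, with replicate 4 inside the WT range. The log2 fold change was 0.42 (standard error 0.17, unadjusted p = 0.0241, adjusted p = 0.999 by edgeR). *Lyz2* encodes lysozyme, which digests bacterial cell walls and is made by monocytes and macrophages as well as neutrophils. It stood at 191, 133 and 306 CPM in WT mice and at 324, 382, 300 and 212 CPM in KO mice, and was the 1 member with its highest level in KO replicate 2 instead of replicate 3. Its log2 fold change was 0.54 (standard error 0.29, unadjusted p = 0.0932, adjusted p = 0.999 by edgeR). *Chil3* and *Lyz2* are also the members with near-identical copies: of the 75-base stretches in the last 500 bases of the transcript, 12.2% of those of *Chil3* also occur in *Chil4* or *Gm6522*, and 7.04% of those of *Lyz2* occur in *Lyz1*. *Chil4* had 0 to 2 reads per mouse and *Lyz1* had 1 to 10. No other member shared such a stretch, and none overlapped an annotated gene.

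The 6 iron-binding, cathelicidin and protease genes were high and low in much the same mice. Their summed level was 1983, 3183 and 2651 CPM in WT replicates 1 to 3 and 4093, 1934, 8186 and 2994 CPM in KO replicates 1 to 4. The highest KO mouse exceeded the lowest by 4.23 times, and for the single genes by 3.37 times (*Ltf*) to 5.22 times (*Mmp9*). In WT mice the same fold was between 1.51 and 1.97. On the log2(CPM + 1) scale the SD among KO mice was 0.78 to 0.99 for these 6 genes and 0.31 to 0.50 among WT mice, where the median over all genes tested was 0.267 and 0.252. Among the 6665 genes with a mean of at least 20 CPM, a limit chosen after the values had been seen, they ranked between 19 and 46 for the SD among KO mice. The difference in spread between the genotypes was not tested.

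The sum of *Chil3*, *Lyz2*, *Wfdc21* and *Mcemp1* was 520, 415 and 724 CPM in the WT mice and 858, 850, 960 and 610 CPM in the KO mice. KO replicate 2, the lowest of all mice for the first sum, lay above every WT mouse for this one. Its highest and lowest KO mouse differed by 1.57 times. Their SDs among KO mice were 0.287 for *Wfdc21*, 0.298 for *Chil3*, 0.358 for *Lyz2* and 0.501 for *Mcemp1*. Among WT mice they were 0.305, 0.289, 0.602 and 0.364, so that the WT spread was the larger for *Wfdc21* and *Lyz2*. All 4 lay above the median of 0.207 over the genes with at least 20 CPM, at ranks from 218 (*Mcemp1*) to 1758 (*Wfdc21*). Over all 10 members, KO replicate 3 was highest for 9 and KO replicate 1 second highest for 9. Both together held for 8 of the 10, and for 2.49% of all genes tested.

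**Figure D2:**
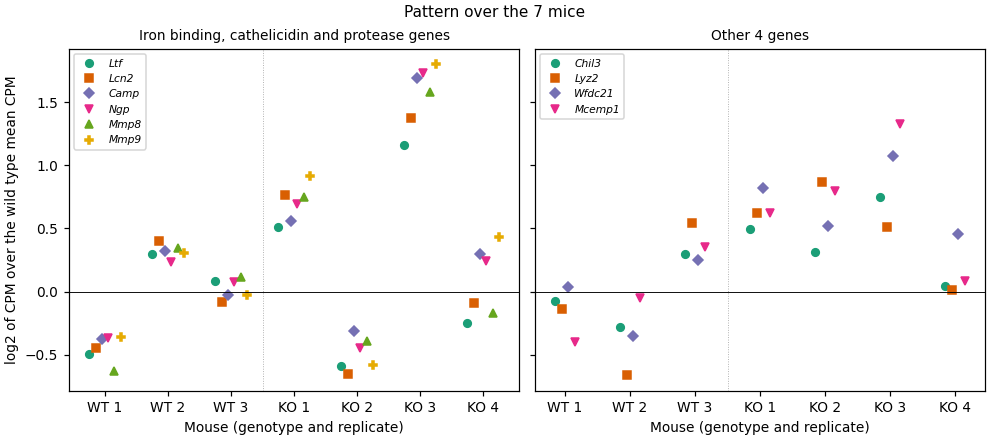
Level of each gene in each mouse as log2 of CPM over that gene's WT mean; the mice have no order. At the left, the 6 iron-binding, cathelicidin and protease genes were all highest in KO replicate 3 and all below 0 in KO replicate 2, where the 4 genes at the right lay above 0.

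Without KO replicate 3, 9 of the 10 members had a positive log2 fold change, beside 49.4% of 11117 genes tested, and 2 of the 10 had an unadjusted p-value below 0.05, beside 1.65% of genes higher in KO cells. The log2 fold change of *Ltf* was then −0.032, that of *Lcn2* 0.13, of *Mmp8* 0.16, of *Camp* 0.22, of *Ngp* 0.24 and of *Mmp9* 0.38. None of these had an unadjusted p-value under 0.3 by edgeR. *Wfdc21* was at 0.61 (unadjusted p = 0.00165), *Lyz2* 0.54 (unadjusted p = 0.171), *Mcemp1* 0.54 (unadjusted p = 0.0311) and *Chil3* 0.30 (unadjusted p = 0.0869), all with an adjusted p of 1 by edgeR. The order of single genes crossed the line between the groups, since *Mmp9* lay above *Chil3*. *Lyz2* varied more with the WT mice left out, at 0.30 without WT replicate 2 and 0.91 without WT replicate 3. The median of the 10 members was 0.27 in place of 0.70. The median of the 6 genes went from 0.71 to 0.19, and that of the other 4 from 0.64 to 0.54. The grouping into 6 and 4 genes was made with earlier results of these data known, and the contrast between them was not tested.

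**Figure D3:**
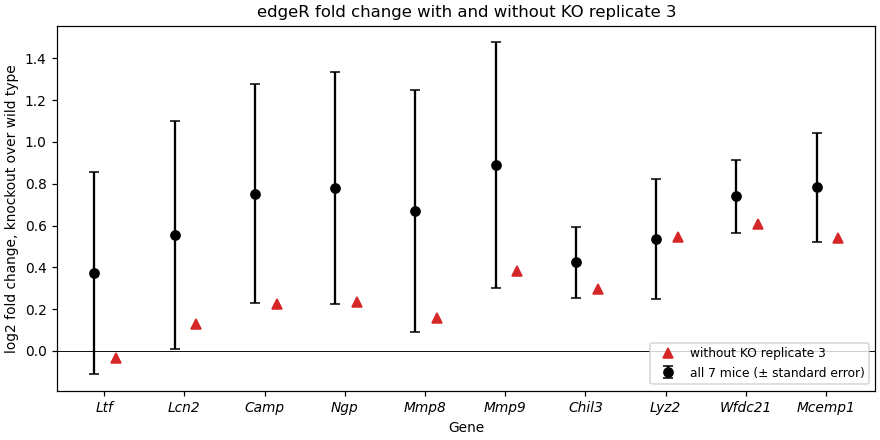
The log2 fold change of each gene, KO over WT, from edgeR, with all 7 mice (black, ± standard error) and without KO replicate 3 (red triangles). The first 6 genes came down to between −0.032 and 0.38, and the last 4 lay between 0.30 and 0.61, with *Mcemp1* down from 0.78 to 0.54 and *Chil3* from 0.42 to 0.30.

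Other genes of the same granules were taken from a list of 28, of which 26 were tested. Of these, 24 had a positive and 2 a negative log2 fold change, with a median of 0.31, and 2 had an unadjusted p-value under 0.05, both higher. *Adam8*, a metalloprotease of granule membranes, stood at 14.5, 18.8 and 19.4 CPM in WT mice and 34.8, 22.2, 39.1 and 16.7 CPM in KO mice (log2 fold change 0.69, standard error 0.28, unadjusted p = 0.0221, adjusted p = 0.999 by edgeR). *Hp*, haptoglobin, averaged 82.5 ± 11.6 CPM (SD, n = 3) in WT and 107.6 ± 16.5 CPM (SD, n = 4) in KO mice (log2 fold change 0.38, standard error 0.16, unadjusted p = 0.0277, adjusted p = 0.999 by edgeR). KO replicate 3 was the highest mouse for 14 of the 26, where it was for 15.7% of all genes tested. The summed level of the list was 1686 to 1867 CPM in WT and 1874 to 2412 CPM in KO mice. Without KO replicate 3, 18 of 25 tested genes had a positive log2 fold change, beside 49.4% of all genes, and the median was 0.21. None of the 25 had an unadjusted p-value under 0.05, beside 1.65% of all genes higher in KO cells. *Adam8* was then at 0.50 and *Hp* at 0.29.

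Genes of the later, mature neutrophil were listed as 24, of which 19 were tested, 18 with a positive log2 fold change and a median of 0.35. Of these 3 had an unadjusted p-value under 0.05, all higher, beside 1.56% of all genes: *Il1b*, *Il1r2* and *Clec4e*. *Il1r2*, the decoy receptor for interleukin 1, stood at 6.80, 7.28 and 6.11 CPM in WT mice and 8.94, 7.69, 31.2 and 9.22 CPM in KO mice, so its log2 fold change of 1.09 (standard error 0.47, unadjusted p = 0.0337, adjusted p = 0.999 by edgeR) came with 1 mouse far above the rest. *Ly6g*, the surface marker of neutrophils, stood at 33.6, 40.9 and 30.6 CPM in WT mice and at 68.4, 34.1, 106.5 and 39.9 CPM in KO mice. Their summed level was 6425 to 9307 CPM in WT and 7949 to 18160 CPM in KO mice. KO replicate 3 was the highest mouse for 17 of the 19 genes. Without it, 12 of the 19 had a positive log2 fold change, beside 49.4% of all genes, and the median was 0.20. Then 1 gene, *S100a9* at 0.39, had an unadjusted p-value under 0.05, beside 1.65% of all genes higher in KO cells. *Il1r2* was then at 0.35 and *Ly6g* at 0.44.

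The primary granule genes, made 1 stage earlier, did not share the pattern. Besides *Mpo*, *Elane*, *Prtn3* and *Ctsg*, their list held genes such as *Plac8* and *Nkg7*, and *Nkg7* was in the lymphoid list too. Of 12 tested among 13 listed, 6 had a positive and 6 a negative log2 fold change, from −0.14 to 0.23 with a median of −0.013, none with an unadjusted p-value under 0.05. KO replicate 3 was the highest mouse for 0 of the 12, and without it the median was 0.037. *Elane*, neutrophil elastase, averaged 663.0 ± 165.4 CPM (SD, n = 3) in WT and 602.8 ± 125.8 CPM (SD, n = 4) in KO mice. The log2 ratio of the summed members to the summed primary granule genes was −2.64, −1.68 and −2 in WT mice and −1.23, −2.51, −0.52 and −1.93 in KO mice, so that replicates 1 and 3 lay above every WT mouse and replicates 2 and 4 within the WT range. The ratio of the members to the mature neutrophil genes lay between −1.46 and −0.84 in WT and between −1.51 and −0.99 in KO mice.

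**Figure D4:**
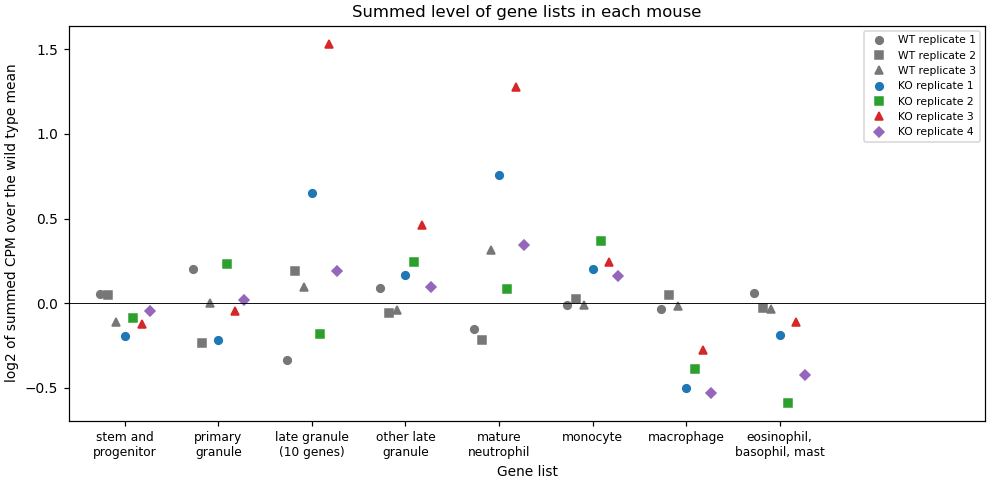
Summed CPM of gene lists in each mouse, as log2 over the WT mean of that list, with points by mouse. KO replicates 1 and 3 were high for the late granule and mature neutrophil lists and not for the primary granule list.

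Regulators of granulocyte formation were listed as 13 genes, all tested, 8 with a positive and 5 with a negative log2 fold change and a median of 0.052, which was −0.069 without KO replicate 3. *Cebpe*, which encodes C/EBPε, stood at 36.6, 63.0 and 25.5 CPM in WT mice and at 20.8, 21.2, 74.6 and 56.1 CPM in KO mice (log2 fold change 0.05, standard error 0.59, unadjusted p = 0.933, adjusted p = 0.999 by edgeR). Without KO replicate 3 its log2 fold change was −0.36. It was highest in KO replicate 3 like the granule genes, but lowest in KO replicate 1, where 9 of the 10 members had their second highest level. *Cebpd*, which encodes the related C/EBPδ, stood at 59.5, 51.5 and 53.9 CPM in WT and at 68.6, 90.2, 99.97 and 77.7 CPM in KO mice, without overlap (log2 fold change 0.61, standard error 0.16, unadjusted p = 0.00153, adjusted p = 0.811 by edgeR). *Gfi1*, a repressor needed for granulocyte formation, averaged 110.4 ± 11.1 CPM (SD, n = 3) in WT and 99.8 ± 16.4 CPM (SD, n = 4) in KO mice.

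By a rule on likeness, the 10 non-member genes were taken whose standardized log2(CPM + 1) values over the 7 mice differed least, in root mean square, from the members' mean standardized values. They included *Retnlg*, *Gpatch4*, *Snx1*, *Wrap53*, *Clasp1*, *S100a9*, *Cxcr4*, *S100a6* and *Clec4d*, with differences of 0.185 to 0.325, where the median over non-members was 1.22. The members themselves lay between 0.325 and 0.895. *Retnlg*, which encodes a resistin-like protein of neutrophils, was the nearest, at 99.4, 125.4 and 166.3 CPM in WT mice and 277.9, 146.3, 448.1 and 126.1 CPM in KO mice, with a log2 fold change of 0.94, or 0.50 without KO replicate 3. *S100a9*, a subunit of calprotectin, the main calcium-binding protein of the neutrophil cytosol, stood at 2703, 3546 and 3262 CPM in WT mice and 5130, 2916, 9388 and 4388 CPM in KO mice. *Retnlg*, *S100a9* and *Clec4d* are in the list of mature neutrophil genes, and the others named are in none of the lists.

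Markers of other cells that lin- marrow can hold were counted in the same way, and 0 of them passed the limit of 0.25 in edgeR. *Lyz2*, *Chil3* and *Mcemp1* are made by monocytes too, and of 12 monocyte genes tested, 8 had a positive log2 fold change and 5 an unadjusted p-value under 0.05, all 5 higher, beside 1.56% of all genes. Their summed level was 4121 to 4229 CPM in WT and 4640 to 5358 CPM in KO mice, highest in KO replicate 2, the mouse with the highest *Lyz2*. Among them *Fn1*, fibronectin, stood at 48.5, 66.9 and 87.2 CPM in WT and 115.2, 127.2, 201.4 and 95.7 CPM in KO mice. Without KO replicate 3, 10 of the 12 were positive and 5 had an unadjusted p-value under 0.05, all higher, beside 1.65% of all genes. Of 12 macrophage genes tested, all 12 had a negative log2 fold change, 7 with an unadjusted p-value under 0.05 beside 2.07% of all genes, and 7 with every KO mouse below every WT mouse beside 2.79% of all genes. Their sum was 596 to 632 CPM in WT and 422 to 504 CPM in KO mice. Without KO replicate 3, 11 of the 12 were negative, 9 with an unadjusted p-value under 0.05, beside 2.31% of all genes. The eosinophil, basophil and mast cell genes summed to 4879 to 5202 CPM in WT and 3320 to 4625 CPM in KO mice, with 12 of 14 negative. Of the 14, 5 had an unadjusted p-value under 0.05, all lower, and 5 had every KO mouse below every WT mouse; 7 were lower at that p-value without KO replicate 3. Stem and progenitor genes, 15 tested, 10 of them negative and 2 lower with an unadjusted p-value under 0.05 (0 without KO replicate 3), summed to 1978 to 2219 CPM in WT and 1866 to 2064 CPM in KO mice. The erythroid sum was 141.7 to 280.6 CPM in WT and 72.9 to 324.6 CPM in KO mice, and of its 12 genes 8 were tested, 6 of them negative and 0 with an unadjusted p-value under 0.05, while 4 had no read in any mouse. Of 14 lymphoid genes 9 were negative, 3 with an unadjusted p-value under 0.05 and 2 with every KO mouse below every WT mouse (5 of 13 lower at that p-value without KO replicate 3). Their sum was 730 to 828 CPM in WT and 591 to 746 CPM in KO mice. The part of these cells in the levels of the members was not tested.

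*Camp*, *Ngp* and *Ltf* lie within 1.2 Mb of each other on chromosome 9 of GRCm38, *Camp* from 109847379 to 109849617, *Ngp* from 110419747 to 110423012 and *Ltf* from 111019271 to 111042767 in GENCODE M21. Between them lie 32 other listed genes, of which 17 were tested. These had a positive log2 fold change in 8 cases and a negative one in 9, with a median of −0.0013, and none had an unadjusted p-value under 0.05. KO replicate 3 was the highest mouse for 4 of the 17. *Scap* and *Ptpn23*, the neighbours of *Ngp* on one side, had log2 fold changes of 0.03 and −0.15, and *Klhl18*, on the other side, 0.05. *Mmp8* lies on the same chromosome from 7558456 to 7568485, far from the other members. *Lcn2* (32384633 to 32388252) and *Mmp9* (164940780 to 164955850) lie apart on chromosome 2, and *Chil3*, *Lyz2*, *Wfdc21* and *Mcemp1* lie on chromosomes 3, 10, 11 and 8.

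**Figure D5:**
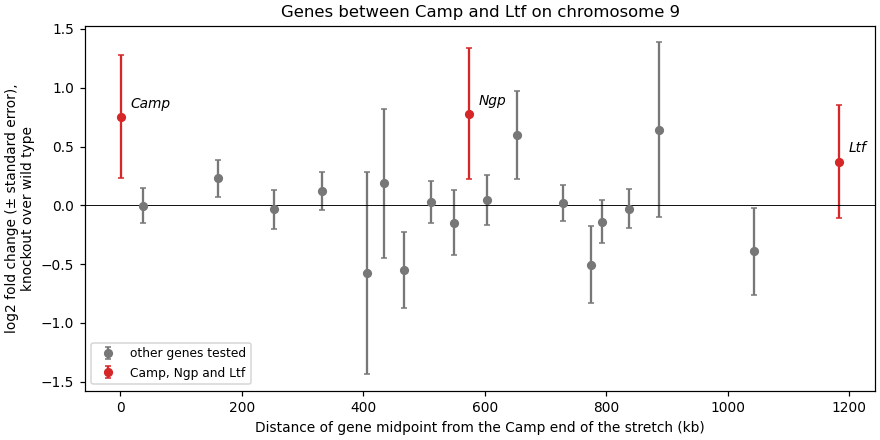
The log2 fold change of the genes tested from *Camp* to *Ltf*, ± standard error, against the distance of each gene's midpoint from the *Camp* end of the stretch in kb. *Camp*, *Ngp* and *Ltf* (red) had 0.75, 0.78 and 0.37, and the 17 genes between them (grey) had a median of −0.0013.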

How the data were processed

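Lin- bone marrow RNA (500 ng) of 3 WT and 4 KO mice was made into 3′ end libraries and read as 75 bp single reads. According to the methods, the authors used STAR with the GRCm38 genome and an Ensembl gene set, and they deposited raw counts per gene symbol, 1 library per mouse. The 5 tally rows of each file were left out (reads on no gene were 27.0% to 31.6%). The strand setting is not given in the sources used here. WT libraries held 3525665 to 4490287 reads on genes and KO libraries 4355974 to 5605158.

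From the counts, edgeR 4.0.16 (R 4.3.3) was used for filterByExpr, TMM scaling and a robust quasi-likelihood test of genotype, with Benjamini-Hochberg adjustment over all genes and no replicate block. The standard error is the log2 fold change over the square root of F. An adjusted p under 0.25, the study's limit, counted as a call. Within each genotype, no 2 libraries agreed within sampling noise. The members, lists and motifs were chosen with earlier results of these data known. Named genes are the members, *Hdgfl2*, up to 4 genes of each list with the smallest p, *Cebpe*, *Gfi1*, *Rn45s* and the 10 nearest profiles, of which 1 is not reported here. Other genes, such as *Xist*, *Ddx3y*, copies and neighbours of members, and those in the closing section, were chosen after their values were seen. DESeq2 1.42.0, limma-voom (limma 3.58.1), other scalings and filters, a replicate block, *Rn45s* settings and the omission of each mouse were alternatives. The other gene lists without KO replicate 3 were added after the data had been seen. Gene positions are from GENCODE M21.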

Additional observations from a re-analysis of the deposited data

Results flagged for a closer look

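Among 78 results tested for a KO mouse far from the other 3, 6 stood out, where chance flags about 1 in 20, or 3.9. That rate is for independent results, and the list sums hold some of the single genes, so 3.9 is only a rough guide. None of the 10 members was among the 6. *Il1r2* stood at 31.2 CPM in KO replicate 3, the mouse highest for 9 of the members, against 7.69 to 9.22 CPM in the other KO mice. Of 8 megakaryocyte and platelet genes 7 were tested, 4 of them with a positive log2 fold change, and some were high in KO replicate 4: *Pf4* at 572.3 CPM against 20.8 to 109.3 CPM, *Ppbp* at 87.7 CPM against 3.11 to 8.41 CPM, *Gp1bb* at 8.72 CPM against 0.777 to 2.06 CPM, and the summed megakaryocyte list at 919.1 CPM against 104.7 to 193.9 CPM. In the same mouse the summed granulopoiesis regulators were low, at 1222 CPM against 1394 to 1419 CPM. KO replicate 4 was the lowest KO mouse for *Chil3*, *Lyz2*, *Wfdc21* and *Mcemp1*, at 186, 212, 176 and 35.6 CPM.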

How the results depend on the processing

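The median log2 fold change of the 10 members stayed positive in 19 other fits, between 0.27 and 0.84 when 1 mouse was left out. *Ltf*, at 0.37, ranged from −0.032 (without KO replicate 3) to 0.59 (without KO replicate 2). The number of members at an adjusted p under 0.25 was 0, 2 without a filter on low counts (*Wfdc21*, adjusted p = 0.0022, and *Mcemp1*, adjusted p = 0.0596, both by edgeR), 1 with DESeq2 and 1 with edgeR's likelihood ratio test, *Wfdc21* each time (0.0931 and 0.149), and 0 in each fit that left out 1 mouse. Over all genes the number was 2, and 41 without the filter, 1 with at least 10 reads in every mouse, 21 with DESeq2, 29 with the likelihood ratio test, 4 without robust estimation, 8 with the *Rn45s* share as covariate and 2 to 7 without 1 mouse, the count being 7 without WT replicate 1 and 4 without KO replicate 1. With the replicate block, in which KO replicate 4 has no partner, it was 1 gene and 0 members; same-numbered mice did not deviate together (correlations −0.025, −0.215 and −0.16). The number of members without overlap was 1, and 0 with library size alone, and 1 to 4 when 1 mouse was left out: 4 without WT replicate 3 (5.46% of all genes), 3 without KO replicate 2 (4.41%) and 3 without KO replicate 4 (4.09%). What causes these changes was not tested. The number of members with an unadjusted p-value under 0.05, 3, was between 2 and 7 over these fits: 7 without robust estimation (1.66% of all genes) and 6 without KO replicate 2 (1.7%), *Camp*, *Ngp* and *Mmp9* being among them both times, with adjusted p-values of 0.999 and 1 for these 3 by edgeR. The 3 WT and 4 KO mice limit the precision, most for the 6 genes whose KO levels span several fold.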
